A study of Mus musculus with 5 samples.

Results

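The proteasome subunit genes were examined in myeloid progenitors of mice with a truncating mutation of Bcor, a corepressor that works with a Polycomb repressive complex. Members were all protein-coding genes whose symbol begins with Psma, Psmb, Psmc, Psmd, Psme, Psmf or Psmg followed by a number, leaving out the interferon-inducible Psmb8, Psmb9 and Psmb10. There were 45 such genes among the 52550 genes of the count table, and 43 of them were among the 11766 genes with enough counts to test. The libraries were made from KL cells (Kit+Sca1-Lin-) of the bone marrow, a population rich in committed myeloid progenitors, by a method that sequences the 3′ ends of polyadenylated transcripts. There were 3 BcorΔE9-10 and 2 BcorWT libraries, all from male mice 20 weeks after tamoxifen. By the labels, all 5 libraries came from carriers of the scl-Cre-ERT transgene, a tamoxifen-activated Cre driven by Scl (Tal1) elements in haematopoietic stem and progenitor cells, and both genotypes received 1 mg of tamoxifen a day for 5 days into the peritoneum at 3 to 6 months of age. The BcorΔE9-10 mice were Bcor fl/y, so that Cre removed exons 9 to 10 and left a truncated open reading frame, and the BcorWT mice were Bcor wt/y. No source used here says that each library was made from a separate mouse, so p-values measure the spread between these libraries.

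The proteasome degrades proteins tagged with ubiquitin. Its barrel-shaped 20S core is a stack of outer rings of alpha subunits, which gate the entrance, around inner rings of beta subunits, some of which cut the substrate. The 19S particle on each end holds a ring of ATPases that unfolds the substrate, and non-ATPase subunits that bind ubiquitin, remove it and scaffold the lid. Dedicated chaperones assemble both particles, and the activators and the inhibitor of the Psme and Psmf families bind the core in place of the 19S particle. Every cell needs the complex, and in many cells its genes are transcribed in a coordinated way under the factors Nfe2l1 and, under oxidative stress, Nfe2l2.

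Libraries held 5998924 to 8303999 counts. The sum of 12 KL progenitor markers, Kit, Mpo, Elane and Cd34 among them, was 7372 to 8668 CPM (counts per 1000000 counts of the library) in BcorΔE9-10 and 7884 to 8718 in BcorWT, none of the 12 was at 0, and 2 were called higher and 1 lower. The sum of 10 genes of maturing neutrophils was 149600 to 173500 CPM in BcorΔE9-10 and 216200 to 228700 in BcorWT, with 6 of the 10 called lower, although the sort left out Gr-1+ and CD11b+ cells. The sum of 14 genes of basophils, mast cells and eosinophils was 622 to 887 CPM in BcorΔE9-10 and 1398 to 1720 in BcorWT, with 8 called lower and 1 higher. Erythroid markers summed to 121 to 309 CPM in BcorΔE9-10 and 67.7 to 112 in BcorWT, lymphoid markers to 19.3 to 36.1 and 10.7 to 24.7, megakaryocyte markers to 43.9 to 70.2 and 26.7 to 45.7, and macrophage and monocyte markers to 1074 to 1148 and 1409 to 1410. Of these last lists, 1 erythroid gene was called higher and 1 macrophage gene lower. None of the lists held a gene at 0 in all libraries. The part of these shifts in the results for proteasome genes was not tested, and in bulk libraries fewer cells of a type and less RNA per cell cannot be told apart. Counts at the 3′ end of Bcor lie outside the deleted exons and so do not check the genotype.

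Most proteasome genes differed little between the genotypes, and Psma5 stood apart with a higher level in every BcorΔE9-10 library. A gene was called when its limma p-value, adjusted over all 11766 genes, was under 0.05. By that rule 1 of the 43 tested members, Psma5, was higher in BcorΔE9-10, which is 2.33% of them against a background of 6.02% of all genes tested. Another 3 members, Psmb3, Psmd4 and Psmd13, were lower, which is 6.98% against a background of 4.09%. Counts were brought to CPM with a TMM scaling factor for each library. On that scale the sum over members was 3865, 3997 and 3712 CPM in BcorΔE9-10 and 4047 and 4278 CPM in BcorWT. The groups did not overlap. As a plain share of the library, however, members took 0.394%, 0.408% and 0.400% of the counts in BcorΔE9-10 and 0.376% and 0.407% in BcorWT, and these groups did overlap, so the order of the sums depended on the scaling.

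**Figure D1:**
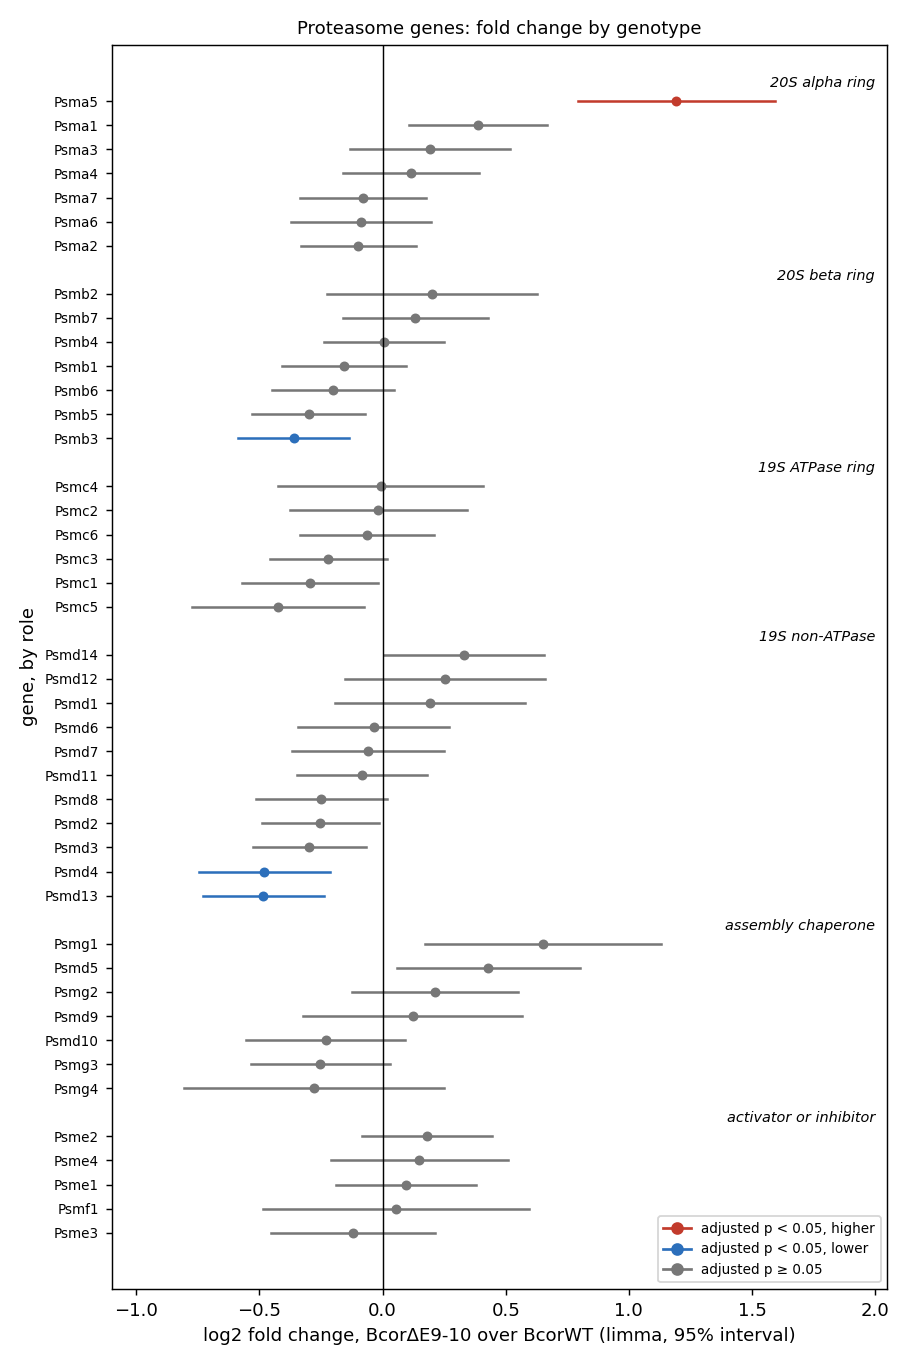
Log2 fold change of each of the 43 tested proteasome genes, BcorΔE9-10 over BcorWT (x axis), with its 95% interval as a line, genes grouped by role (y axis). Psma5, at 1.19, lies to the right of all others, the 3 genes called lower lie between -0.48 and -0.36, and most intervals cross 0.

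The median log2 fold change of the 43 members was -0.06, beside 0.0043 for all genes tested, with a range from -0.48 to 1.19. The log2 fold change was above 0 for 18 members and below 0 for 25, so that 41.9% were higher, against a background of 50.4%. An unadjusted p under 0.05 was found for 13 members, 30.2% of those tested, against a background of 25.3%. The groups did not overlap for 5 members that were higher in BcorΔE9-10, 11.6% of those tested against a background of 22.6%, nor for 14 that were lower, 32.6% against 20.3%. Scaling by library totals alone moved the median of all genes to 0.15 and that of the members to 0.09, and then 28 members were above 0 and 15 below. With that scaling, groups apart were found for 14 members that were higher, 32.6% as among all genes, and for 8 that were lower, 18.6% against 10.6% of all genes. The 95% interval of the log2 fold change lay between -1 and 1 for 41 of the members, 95.3%, against a background of 61.8%. Interval width depends on the level of a gene, and the tested members had mean levels of 11.1 to 336 CPM. The 2 shares were not compared at equal level, so they do not show that members were more stable than other genes. By edgeR's quasi-likelihood test the same 4 genes were called, against a background of 7.05% of genes higher and 4.16% lower.

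The 2 members that could not be tested were tissue-specific forms of core subunits. Psma8, the alpha subunit of testis, had 14, 3 and 2 counts in BcorΔE9-10 and 7 and 3 in BcorWT. Psmb11, the catalytic subunit of the thymus, had 0 counts in every library, which allows a level of up to 0.361 to 0.5 CPM at these depths.

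The promoter windows of the 4 called genes, and of Psmb5 as a gene with an antioxidant response element core, are given to show the start regions of the genes on which the results turn. RefSeq windows (GRCm38.p6, 250 bases before to 50 after the start of transcription) were matched for 37 of the 45 members, in 40 windows, and the last 30 bases of 37 of the 40 windows were found in a transcript of the gene. Capitals mark CCAAT, the box bound by the factor NF-Y, and TGACNNNGC, the core of the antioxidant response element bound by Nfe2l1 and Nfe2l2, either as written or as the reverse complement. The windows lie at chr3:108256676-108256975 on the + strand for Psma5, chr11:97703184-97703483 on the + strand for Psmb3, chr14:54617946-54618245 on the - strand for Psmb5, chr3:95042565-95042864 on the - strand for Psmd4 and chr7:140882144-140882443 on the + strand for Psmd13, and each is written 5′ to 3′ in the direction of its gene.
Psma5: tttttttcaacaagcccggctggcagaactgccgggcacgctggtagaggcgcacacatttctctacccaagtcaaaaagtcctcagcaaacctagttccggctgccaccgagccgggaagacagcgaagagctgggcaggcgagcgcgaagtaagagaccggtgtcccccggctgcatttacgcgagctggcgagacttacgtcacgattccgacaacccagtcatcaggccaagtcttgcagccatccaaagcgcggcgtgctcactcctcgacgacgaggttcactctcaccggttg
Psmb3: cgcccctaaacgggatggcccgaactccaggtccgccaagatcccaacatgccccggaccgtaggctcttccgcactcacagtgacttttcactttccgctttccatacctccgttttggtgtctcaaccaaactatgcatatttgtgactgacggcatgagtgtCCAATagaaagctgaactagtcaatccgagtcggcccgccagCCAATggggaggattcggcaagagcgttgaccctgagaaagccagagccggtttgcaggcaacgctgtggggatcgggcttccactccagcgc
Psmb5: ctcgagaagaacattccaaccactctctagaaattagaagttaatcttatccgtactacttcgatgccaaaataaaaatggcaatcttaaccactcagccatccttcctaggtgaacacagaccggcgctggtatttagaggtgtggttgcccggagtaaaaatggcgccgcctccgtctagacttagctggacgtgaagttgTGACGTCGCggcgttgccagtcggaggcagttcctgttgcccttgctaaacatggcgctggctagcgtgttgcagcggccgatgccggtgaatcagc
Psmd4: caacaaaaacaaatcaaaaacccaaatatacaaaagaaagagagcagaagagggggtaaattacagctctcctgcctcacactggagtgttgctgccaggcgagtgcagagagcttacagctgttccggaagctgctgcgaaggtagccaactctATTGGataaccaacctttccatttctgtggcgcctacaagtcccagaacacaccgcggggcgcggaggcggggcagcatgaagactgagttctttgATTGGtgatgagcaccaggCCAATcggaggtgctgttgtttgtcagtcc
Psmd13: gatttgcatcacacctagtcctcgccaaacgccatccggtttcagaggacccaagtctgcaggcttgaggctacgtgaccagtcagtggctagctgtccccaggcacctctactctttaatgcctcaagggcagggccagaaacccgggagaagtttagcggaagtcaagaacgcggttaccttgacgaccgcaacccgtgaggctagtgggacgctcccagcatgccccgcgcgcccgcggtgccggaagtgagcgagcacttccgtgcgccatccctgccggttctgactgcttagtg

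CCAAT stood 85 and 43 bases before the start of Psmb3, and TGACNNNGC stood 47 bases before the start of Psmb5. In the window of Psmd4 the reverse complement of CCAAT stood 95 bases before and 1 base after the start, and CCAAT as written stood 20 bases after it. Neither set of letters was in the windows of Psma5 and Psmd13. Over all members, 6 of the 40 windows held TGACNNNGC, 15%, against 12.4% of 32851 RefSeq windows, and 13 held CCAAT, 32.5%, against 37.4%. Both strands were searched, the motifs overlapped each other in 0 of the members' windows, and a match or its absence says only whether these letters are in the window.

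Among the alpha ring genes, Psma5 was the only called member of the 7 tested. The gene (ENSMUSG00000068749, mm10 chr3:108256926-108279974, + strand) encodes a structural subunit of the gated outer ring. It had 392, 324 and 433 counts in BcorΔE9-10 and 125 and 180 in BcorWT, or 46.3, 52.9 and 50.6 CPM against 17.8 and 26.7 CPM. All 3 mutant libraries were above both control libraries. The means were 49.9 ± 3.32 CPM (SD, n = 3) and 22.2 ± 6.31 CPM (SD, n = 2). The log2 fold change was 1.19 (SE 0.19, 95% interval 0.79 to 1.59, limma adjusted p = 0.000932, edgeR adjusted p = 0.000906). Within the alpha ring, which needs no scaling between libraries, Psma5 took 5.33%, 5.44% and 5.91% of the counts in BcorΔE9-10 and 2.18% and 2.94% in BcorWT. The Wilson 95% intervals of the 3 mutant libraries started at 4.84% or above and those of the controls ended at 3.4% or below, and these intervals cover counting error only.

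Part of the Psma5 signal cannot be assigned to the gene alone. Of the 30-base words in its last 300 bases, 70.5% also occur in the processed pseudogenes Gm8394 on chromosome 10 and Gm12989 on chromosome 4. Gm12989 had 119, 104 and 116 counts in BcorΔE9-10 and 20 and 34 in BcorWT (log2 fold change 1.94, SE 0.35, limma adjusted p = 0.00239). Gm8394 had 83, 88 and 107 counts in BcorΔE9-10 and 40 and 49 in BcorWT (log2 fold change 0.89, SE 0.29, limma adjusted p = 0.0672). Both copies had higher counts in each mutant library than in either control library. With the copies added to their gene, Psma5 stayed called, at 1.26 on the log2 scale (limma adjusted p = 0.000274). The gene was called in all 17 alternative settings, with a log2 fold change between 0.89, without the first BcorWT library, and 1.49, without the second, and adjusted p between 7.35e-07 and 0.0158.

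**Figure D2:**
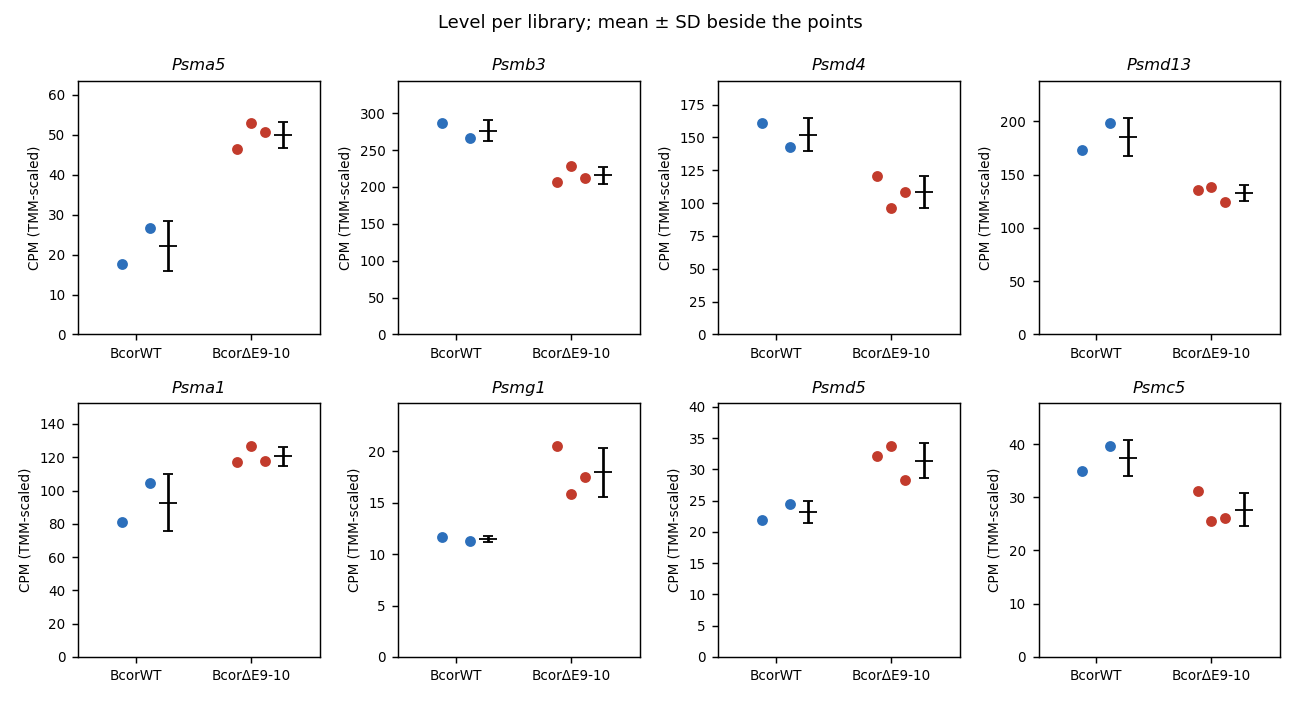
Level in TMM-scaled CPM (y axis, from 0) of the 4 called genes (top) and of 4 genes not called (Psma1, Psmg1, Psmd5 and Psmc5, bottom) in the 2 BcorWT and 3 BcorΔE9-10 libraries, 1 point for each library, with the mean ± SD beside the points. The groups do not overlap in any of the 8 panels, and the log2 fold change is largest for Psma5, at 1.19.

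The other 6 tested alpha ring genes were not called. Psma1 came closest, with 117, 127 and 118 CPM in BcorΔE9-10 and 80.8 and 105 in BcorWT (log2 fold change 0.39, SE 0.13, limma adjusted p = 0.0765). Its groups did not overlap. The value rested on single controls, at 0.58 without the second BcorWT library (limma adjusted p = 0.0165, called) and 0.19 without the first (limma adjusted p = 0.529), and it was 0.21 with GC correction (limma adjusted p = 0.363). Psma2, the alpha ring gene with the most counts, had 316, 366 and 302 CPM in BcorΔE9-10 and 335 and 364 in BcorWT (log2 fold change -0.10, limma adjusted p = 0.619), with overlapping groups. Psma2 was at -0.18 without the second BcorΔE9-10 library and at -0.0328 without the second BcorWT library. Psma3, Psma4, Psma6 and Psma7 lay between -0.09 and 0.19, and all their groups overlapped. The ring as a whole summed to 870, 973 and 856 CPM in BcorΔE9-10 and 815 and 906 in BcorWT.

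Among the beta ring genes, Psmb3 was the only called member of the 7 tested, and it was lower in BcorΔE9-10. Psmb3 (ENSMUSG00000069744, mm10 chr11:97703399-97713500, + strand) encodes a structural subunit without protease activity. It had 207, 229 and 212 CPM in BcorΔE9-10 and 286 and 266 in BcorWT, so that all 3 mutant libraries were below both controls. The means were 216 ± 11.6 CPM (SD, n = 3) and 276 ± 14.3 CPM (SD, n = 2), and the fold change on the log2 scale was -0.36 (SE 0.11, 95% interval -0.59 to -0.13, limma adjusted p = 0.0420, edgeR adjusted p = 0.0478). Its share of the beta ring counts was 20.5%, 21.6% and 22.7% in BcorΔE9-10 and 25.4% and 23.7% in BcorWT, also with no overlap. The call was lost in 7 of 17 alternative settings, among them library totals alone (-0.22, limma adjusted p = 0.220), a correction for GC content (-0.34, limma adjusted p = 0.0584) and leaving out the first BcorWT library (-0.31, limma adjusted p = 0.198), the first BcorΔE9-10 library (-0.33, limma adjusted p = 0.154) or the third (-0.36, limma adjusted p = 0.112).

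The catalytic beta subunits did not pass the test. Psmb5, which carries the chymotrypsin-like activity, had 185, 199 and 177 CPM in BcorΔE9-10 and 226 and 234 in BcorWT (log2 fold change -0.30, SE 0.11, limma adjusted p = 0.0918). Its groups did not overlap, and with GC correction it was at -0.14 (limma adjusted p = 0.468). The ends of Psmb5 share 63.5% of their 30-base words with pseudogenes, of which Gm3375 had 6 counts or fewer in each library. Psmb6, with the caspase-like activity, had a log2 fold change of -0.20 and Psmb7, with the trypsin-like activity, of 0.13 (limma adjusted p = 0.299 and 0.591). Psmb4, the beta ring gene with the most counts, had 271, 275 and 225 CPM in BcorΔE9-10 and 255 and 254 in BcorWT (log2 fold change 0.0044, 95% interval -0.24 to 0.25). Psmb2 had 20.8, 18.1 and 18.3 CPM in BcorΔE9-10 and 15.2 and 18.2 in BcorWT, the highest log2 fold change of the ring at 0.20 (limma adjusted p = 0.572), with overlapping groups and values of 0.0629 and 0.33 without the first and the second BcorWT library. Psmb1 lay at -0.16 (limma adjusted p = 0.434), and for Psmb1 and Psmb6 all mutant libraries were below both controls with TMM. With library totals alone only Psmb3 and Psmb5 of the ring were apart and lower, beside 10.6% of all genes. Psmb2, Psmb4 and Psmb7 were then apart and higher, beside 32.6% of all genes. The ring summed to 1010, 1062 and 931 CPM in BcorΔE9-10 and 1128 and 1123 in BcorWT.

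The 6 genes of the ATPase ring all had a log2 fold change below 0 and none was called. Their median was -0.14, and groups were apart for 3 of them, Psmc1, Psmc3 and Psmc5, beside a background of 20.3% of all genes apart and lower. With library totals alone Psmc1, Psmc3 and Psmc5 lay at -0.15, -0.0746 and -0.28, of which Psmc1 and Psmc5 were apart (10.6% of all genes were apart and lower), and Psmc2, Psmc4 and Psmc6 lay above 0. With GC correction Psmc2 and Psmc4 also lay above 0, at 0.0061 and 0.0939, and Psmc6 went from -0.06 to -0.36. Psmc5 had 31.2, 25.6 and 26.2 CPM in BcorΔE9-10 and 34.9 and 39.7 in BcorWT (log2 fold change -0.43, SE 0.16, limma adjusted p = 0.116). Psmc1 had 72.0, 61.4 and 63.1 CPM in BcorΔE9-10 and 80.8 and 79.9 in BcorWT (log2 fold change -0.29, SE 0.13, limma adjusted p = 0.171). Psmc3 had 169, 156 and 150.2 CPM in BcorΔE9-10 and 178 and 191 in BcorWT (log2 fold change -0.22, limma adjusted p = 0.238). In each of these genes all mutant libraries were below both controls, and none passed the adjusted threshold. Psmc4 had 19.4, 23.5 and 22.4 CPM in BcorΔE9-10 and 18.7 and 25.2 in BcorWT, a log2 fold change of -0.0074 that turned above 0 with library totals alone (0.14). Psmc2 and Psmc6 lay at -0.02 and -0.06. The ring summed to 412, 382 and 376 CPM in BcorΔE9-10 and 423 and 468 in BcorWT.

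**Figure D3:**
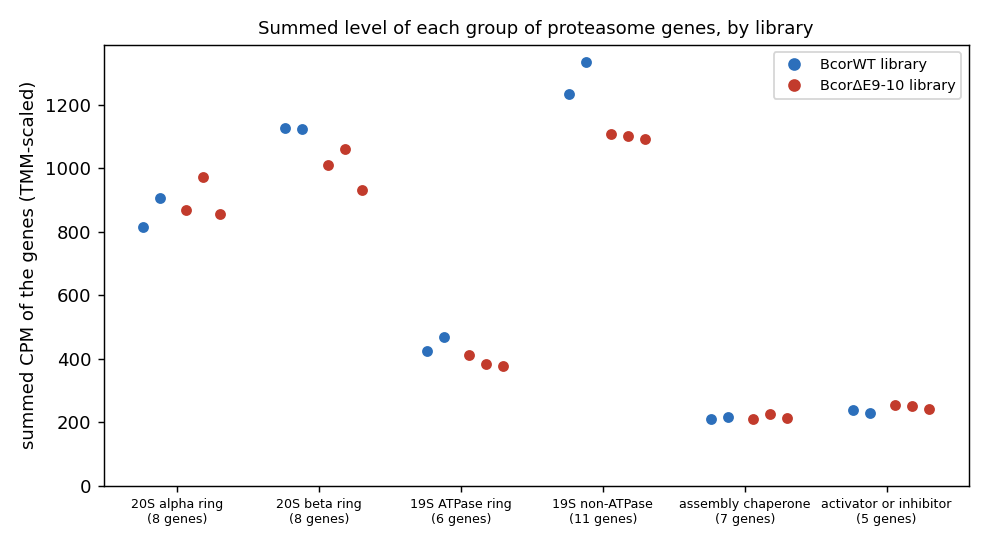
Summed TMM-scaled CPM (y axis, from 0) of the genes of each role (x axis), 1 point for each library. The non-ATPase genes sit at 1093 to 1108 in BcorΔE9-10 and at 1235 and 1333 in BcorWT, while the alpha ring genes and the chaperones overlap between the genotypes. These sums use the TMM scaling.

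As a plain share of the library the order of these sums changed. The beta ring took 0.103%, 0.108% and 0.100% of the counts in BcorΔE9-10 and 0.105% and 0.107% in BcorWT. The ATPase ring took 0.0420%, 0.0390% and 0.0405% in BcorΔE9-10 and 0.0393% and 0.0445% in BcorWT. The non-ATPase genes took 0.113%, 0.113% and 0.118% in BcorΔE9-10 and 0.115% and 0.127% in BcorWT. All 3 roles overlapped between the genotypes on this scale, so their lower sums in BcorΔE9-10 held with TMM and not as a share of the library. The alpha ring, the chaperones and the activators and inhibitors were each above both controls in all 3 mutant libraries on this scale. All genes tested shifted in that direction with library totals alone, with a median log2 fold change of 0.15 and 32.6% of genes apart and higher. The sums of the roles were not tested.

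The non-ATPase genes of the 19S particle held both other lower calls, with 8 of the 11 below 0 and a median of -0.08, beside a background of 4.09% of all genes called lower and 50.4% above 0. With library totals alone 5 of the 11 lay below 0 (Psmd2, Psmd3, Psmd4, Psmd8 and Psmd13) and none was called. Psmd13 (ENSMUSG00000025487, mm10 chr7:140881968-140898643, + strand) encodes a subunit of the lid. It had 135, 138 and 124 CPM in BcorΔE9-10 and 173 and 198 in BcorWT, with all mutant libraries below both controls. The means were 133 ± 7.27 CPM (SD, n = 3) and 186 ± 17.8 CPM (SD, n = 2), and the fold change on the log2 scale was -0.48 (SE 0.12, 95% interval -0.73 to -0.24, limma adjusted p = 0.0147, edgeR adjusted p = 0.0155). Its share of the counts of these 11 genes was 12.2%, 12.5% and 11.4% in BcorΔE9-10 and 14.0% and 14.9% in BcorWT, again with no overlap. Psmd13 overlaps Gm15542 on the same strand, which had 124, 96 and 47 counts in BcorΔE9-10 and 51 and 43 in BcorWT. It also overlaps Sirt3 on the other strand, which had 66 to 108 counts a library, and whether the counting used strand is not given in the sources used here. The call was lost in 5 of 17 alternative settings, among them library totals alone (-0.34, limma adjusted p = 0.0766), GC correction (-0.32, limma adjusted p = 0.106) and leaving out the third BcorΔE9-10 library (-0.45, limma adjusted p = 0.0623) or the second BcorWT library (-0.38, limma adjusted p = 0.0879).

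Psmd4 (ENSMUSG00000005625, mm10 chr3:95032694-95042614, - strand) encodes a ubiquitin receptor of the 19S particle. It had 121, 96.6 and 109 CPM in BcorΔE9-10 and 161 and 143 in BcorWT, so that all mutant libraries were below both controls. The means were 109 ± 12.0 CPM (SD, n = 3) and 152 ± 12.6 CPM (SD, n = 2), and the fold change on the log2 scale was -0.48 (SE 0.13, 95% interval -0.75 to -0.21, limma adjusted p = 0.0227, edgeR adjusted p = 0.0241). As a share of the counts of the 11 non-ATPase genes the groups overlapped, at 10.9%, 8.77% and 9.95% in BcorΔE9-10 and 13.0% and 10.7% in BcorWT. The call was lost in 6 of 17 alternative settings, among them library totals alone (-0.34, limma adjusted p = 0.103), GC correction (-0.32, limma adjusted p = 0.114) and leaving out the first BcorWT library (-0.40, limma adjusted p = 0.138), the second BcorΔE9-10 library (-0.41, limma adjusted p = 0.0683) or the third (-0.49, limma adjusted p = 0.0677).

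**Figure D4:**
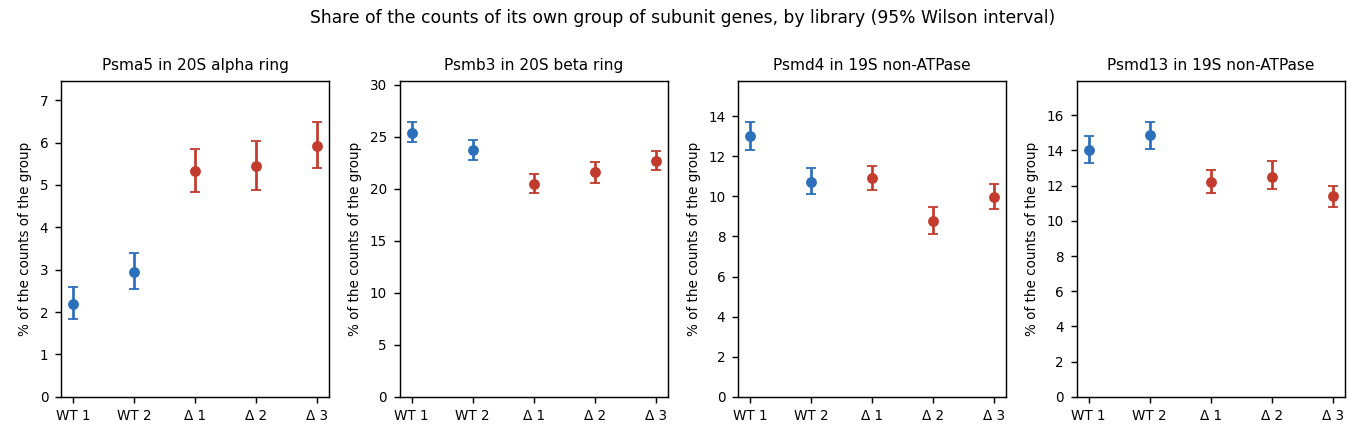
Counts of Psma5, Psmb3, Psmd4 and Psmd13 in percent of the counts of their own role (y axis, from 0) in each library (x axis, WT for BcorWT and Δ for BcorΔE9-10), with 95% Wilson intervals as bars. The share of Psma5 is 5.33% to 5.91% in BcorΔE9-10 and 2.18% and 2.94% in BcorWT, and for Psmd4 the genotypes overlap.

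The remaining non-ATPase genes were not called. Psmd3, a lid subunit, had 156, 160.2 and 163 CPM in BcorΔE9-10 and 199.8 and 192 in BcorWT (log2 fold change -0.30, SE 0.11, limma adjusted p = 0.0938), with groups apart. Psmd2, a scaffold of the 19S base, had 187, 182 and 198 CPM in BcorΔE9-10 and 210.2 and 243 in BcorWT (log2 fold change -0.25, SE 0.11, limma adjusted p = 0.168), also with groups apart, and 54.2% of the words of its end occur in pseudogenes. Psmd2 was at -0.36 without the first BcorWT library and -0.15 without the second. The main such copy, Gm5422, had 488, 302 and 479 counts in BcorΔE9-10 and 465 and 446 in BcorWT (log2 fold change -0.28, limma adjusted p = 0.214). Psmd14, the deubiquitinase of the lid, lay on the other side of 0, with 80.7, 85.0 and 104 CPM in BcorΔE9-10 and 62.1 and 81.9 in BcorWT (log2 fold change 0.33, SE 0.15, limma adjusted p = 0.190), and its groups overlapped. It was at 0.12 without the first BcorWT library and at 0.53 without the second (limma adjusted p = 0.756 and 0.0559). Psmd8 lay at -0.25 with groups apart, and Psmd1, Psmd6, Psmd7, Psmd11 and Psmd12 lay between -0.08 and 0.25 with overlapping groups. With library totals alone Psmd3, Psmd4 and Psmd13 were still apart and lower, beside 10.6% of all genes, and Psmd2 and Psmd8 were not. Psmd12 and Psmd14 were then apart and higher, beside 32.6% of all genes. Psmd1 shares 74.5% of the words of its end with Gm21972, so its value is uncertain. The 11 genes summed to 1108, 1102 and 1093 CPM in BcorΔE9-10 and 1235 and 1333 in BcorWT.

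Among the 7 assembly chaperones none was called, and both directions were seen. Psmg1, a chaperone that pairs with Psmg2 to build the alpha ring, had 20.6, 15.8 and 17.5 CPM in BcorΔE9-10 and 11.6 and 11.3 in BcorWT (log2 fold change 0.65, SE 0.23, limma adjusted p = 0.0792). Psmd5, a chaperone of the 19S base, had 32.1, 33.8 and 28.3 CPM in BcorΔE9-10 and 21.9 and 24.4 in BcorWT (log2 fold change 0.43, SE 0.18, limma adjusted p = 0.136). Both genes were higher in all mutant libraries, and with library totals alone both were called, at 0.80 (limma adjusted p = 0.0318) and 0.58 (limma adjusted p = 0.0455). Psmg3 had 57.0, 59.6 and 52.8 CPM in BcorΔE9-10 and 67.6 and 66.4 in BcorWT (log2 fold change -0.25, limma adjusted p = 0.251), with groups apart. Its partner Psmg4 had 9.34, 12.7 and 15.2 CPM in BcorΔE9-10 and 12.9 and 16.9 in BcorWT (log2 fold change -0.28, limma adjusted p = 0.520), with overlapping groups, and ranged from -0.48 without the first BcorWT library to -0.0666 without the first BcorΔE9-10 library. Psmg2 lay at 0.21, Psmd9 at 0.12 and Psmd10, with groups apart, at -0.23. With library totals alone Psmg3 was still apart and lower, beside 10.6% of all genes, and Psmd10 was not. Psmg1, Psmg2, Psmd5 and Psmd9 were then apart and higher, beside 32.6% of all genes. The chaperones summed to 210, 226 and 213 CPM in BcorΔE9-10 and 209 and 218 in BcorWT, which overlap.

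The 5 activators and inhibitors showed no call and log2 fold changes between -0.12 and 0.18. Psme2, which forms with Psme1 the interferon-responsive activator of the core, had 95, 92.8 and 88.7 CPM in BcorΔE9-10 and 77.8 and 84.9 in BcorWT (log2 fold change 0.18, SE 0.12, limma adjusted p = 0.384), with groups apart. Psme2 was at 0.11 without the first BcorWT library and at 0.25 without the second. The end of Psme2 shares 70.8% of its words with copies, Psme2b foremost, which had 675, 466 and 644 counts in BcorΔE9-10 and 503 and 514 in BcorWT, so its counts cannot be assigned to the gene alone. Psme3, the nuclear activator, had 33.8, 36.4 and 33.3 CPM in BcorΔE9-10 and 34.1 and 40.9 in BcorWT (log2 fold change -0.12, limma adjusted p = 0.683). Psme1, Psme4 and the inhibitor Psmf1 lay at 0.10, 0.15 and 0.06, with overlapping groups. This role summed to 255, 253 and 243 CPM in BcorΔE9-10 and 238 and 230.0 in BcorWT, with no overlap and no test.

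The GC content of the transcript end moved with the fold change. Across the 43 members fold changes and the GC content of the last 300 bases had a Spearman correlation of -0.41, and across 11759 genes tested it was -0.25. These are correlations across genes of the same 5 libraries, and genes are not independent replicates. The ends of Psmd4 and Psmd13 had 53.0% and 53.7% GC, near the upper end of the members' range of 27.0% to 59.0%, whereas Psma5 and Psmb3 had 40.7% and 42.3%, below the members' median of 45.0%. With the GC trend removed from each library, Psma5 stayed called at 1.19, Psmd4 and Psmd13 went from -0.48 each to -0.32 each and were no longer called, and Psmb3 went from -0.36 to -0.34, with an adjusted p just past the threshold (limma adjusted p = 0.0584). Psmd10, the member with the lowest GC, was called lower at -0.60 (limma adjusted p = 0.0192). Among members that were not called, Psmd3 went from -0.30 to -0.13, Psmc3 from -0.22 to -0.0665, Psmg3 from -0.25 to -0.0675 and Psma2 from -0.10 to -0.32. The part of GC content in the results was not tested beyond this.

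**Figure D5:**
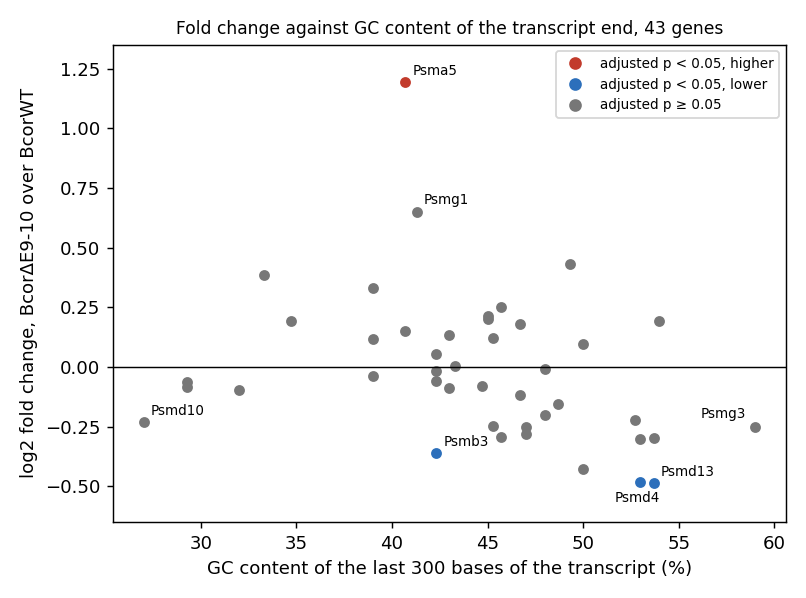
Log2 fold change, BcorΔE9-10 over BcorWT (y axis), against the GC content in percent of the last 300 bases of the transcript (x axis), 1 point for each of the 43 tested proteasome genes, with called genes in colour. Values fall with rising GC content (Spearman -0.41), with Psma5 above all other points and Psmd4 and Psmd13 at the lower right.

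Other genes of the ubiquitin-proteasome pathway were taken from a fixed list of 40 symbols, of which 36 genes were tested. Of these 3 were called higher, 1 lower, and 15 of the 36 lay above 0, with a median of -0.06, beside the background of 6.02% of all genes called higher, 4.09% called lower and 50.4% above 0. The share of the list called in either direction was not tested against other genes. Sem1, a small subunit of the 19S lid, had 499, 585 and 466 CPM in BcorΔE9-10 and 303 and 348 in BcorWT (log2 fold change 0.66, limma adjusted p = 0.00204). Its groups did not overlap, and with GC correction the call was lost (0.31, limma adjusted p = 0.0929). Akirin2, an adaptor for nuclear import of proteasomes, had 69.1, 80.3 and 75.5 CPM in BcorΔE9-10 and 27.4 and 49.9 in BcorWT (log2 fold change 1.02, limma adjusted p = 0.00340). Its call rested on the first BcorWT library, without which it was 0.57 (limma adjusted p = 0.0636). Nfe2l2, the stress-responsive activator of proteasome genes, had 41.0, 47.3 and 42.1 CPM in BcorΔE9-10 and 27.5 and 29.2 in BcorWT (log2 fold change 0.61, limma adjusted p = 0.0240), and was 0.28 with GC correction (limma adjusted p = 0.294). It also lost its call without the second BcorΔE9-10 library (0.55, limma adjusted p = 0.0716), the third (0.61, limma adjusted p = 0.0645) or the first BcorWT library (0.56, limma adjusted p = 0.134). Nfe2l1, given here although it was not called, was at 0.29 on the log2 scale (limma adjusted p = 0.454), and its direction turned with single controls, at -0.11 without the first BcorWT library and 0.67 without the second.

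Of the interferon-inducible core subunits left out of the members, Psmb9 was called higher, with 74.5, 97.7 and 80.5 CPM in BcorΔE9-10 and 37.1 and 55.9 in BcorWT (log2 fold change 0.87, limma adjusted p = 0.00466). The groups did not overlap, Psmb9 overlaps Tap1 on the other strand, and without the first BcorWT library it was 0.57 (limma adjusted p = 0.0785). Psmb8 and Psmb10 were not called, at 0.13 and 0.10.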

How the data were processed

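RNA of sorted KL cells was made into QuantSeq 3′ mRNA libraries. According to the labels and the study's methods, the authors demultiplexed with bcl2fastq 2.17.1.14, trimmed with cutadapt, aligned with HISAT2 to mm10 (GRCm38) and counted reads per gene with featureCounts of Subread 1.5.0-p3. The deposited values are whole-number counts of reads per gene, not normalized, 1 column for each of the 5 libraries, and the labels name no batch. Strand and multi-mapping settings of the counting are not given in the sources used here. QuantSeq reads 1 end of a transcript, so counts were not divided by length.

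Symbols and positions came from GENCODE M21, in which 52403 genes of the table were found. Genes were kept by edgeR's filterByExpr (edgeR 4.0.16, minimum count 10), scaled by TMM and fitted by limma-voom (limma 3.58.1, R 4.3.3) with genotype alone over all 5 libraries, two-sided, with Benjamini-Hochberg adjustment over all genes kept and a threshold of 0.05. CPM are TMM-scaled. Alternatives were edgeR's quasi-likelihood test, DESeq2 1.42.0, other scaling, filters, weights and depth, a GC correction, a block for the replicate number, and leaving out each library.

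Full values are given for members called by limma or edgeR, members with groups apart and an unadjusted p under 0.05, and the member of each role with the highest level, highest fold change and lowest fold change. The other members are given by fold change. The members and lists were chosen with earlier results of these data known. Values are given for the called genes of the pathway list and Nfe2l1, except 1 called gene that is not reported here.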

Additional observations from a re-analysis of the deposited data

How the results depend on the processing

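Psma5 stayed called in every alternative run, and all calls of Psmb3, Psmd4 and Psmd13 depended on at least 1 of scaling, GC content and single libraries, as given above. Among the fold changes of the members given with full values, 16 values turned direction, 18 lost a call and 5 gained one, and among counts and medians 25 moved by over 1.5 times or by more than 1 SD. The other 429 values changed by less than that or kept their direction and side of the threshold. With library totals alone 4 members were called higher (Psma1, Psma5, Psmd5 and Psmg1) and 0 lower, and 6 pathway genes higher and 0 lower. In that setting 1407 of all 11766 genes were called, and 64.7% of all genes lay above 0. The members' median was 0.0859, beside 0.15 for all genes. With GC correction 1 member was called higher (Psma5) and 1 lower (Psmd10), beside 1048 of 11759 genes called. Of the pathway genes 1 was then called higher and 0 lower. Pathway genes called lower were also 0 with DESeq2 and with sample quality weights. Titles give both genotypes the numbers 1 and 2, with no statement that a number marks a pair. For that reason the numbers were not taken as pairs. Same-numbered libraries correlated at 0.07 and 0.076 in their deviations, and numbers 1 and 2 across genotypes at -0.07 and -0.076. With 2 controls these deviations mirror each other, so the values cannot decide whether a number marks a pair. In a fit with the replicate block 1454 genes were called, beside 1189 in the main fit. With the replicate block Psmb3 was no longer called (-0.35, limma adjusted p = 0.0650). When the replicate block joined the GC correction 2 members were called higher (Psma5 and Psmd5) and 1 lower (Psmd10), beside 1265 of 11759 genes called. The members' median was then 0.0212.

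Some genes near 0 that were not called changed sign. Psmb4 went to -0.0033 with DESeq2, -0.0119 with DESeq2 size factors, -0.0054 with quality weights and -0.0033 with all counts thinned to the smallest total. With library totals alone Psma2 went to 0.0458, Psmc4 to 0.14 and Psme3 to 0.028, and of the members not given in full Psma6, Psma7, Psmc2, Psmc6, Psmd6, Psmd7 and Psmd11 also turned above 0. Psmc4 also went to 2e-04 with 10 counts required in every library, 0.0561 with thinned counts, 0.0939 after GC correction and 0.0775 when the block was added to it.

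With 1 library left out at a time, where a lone BcorWT library was assumed to vary like the other group, 558 to 1200 genes were called, with 1 to 2 members higher and 0 to 2 lower, 1 to 3 pathway genes higher and 0 to 2 lower, and a members' median between -0.12 and -0.0215. The lowest and highest log2 fold changes were -0.046 and 0.0884 for Psmb4, -0.23 and 0.21 for Psmc4 and -0.26 and 0.0154 for Psme3. The fewest calls came without the first BcorWT library, and 774 and 723 genes were called without the second and the third BcorΔE9-10 library. Adding copies to their gene was chosen after seeing the data. The cause of these shifts was not tested. With 2 control libraries the spread within BcorWT rests on 1 difference, and the controls differed more from each other (chi-square per gene 11.63) than the pairs of mutant libraries did (6.01 to 7.01), which goes against the assumption made for a lone control.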
